A study of Arabidopsis thaliana with 12 samples.

Results

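The genes described here were at least 2-fold brighter in the Arabidopsis thaliana mutant toc132 than in the wild type (WT) in 2 separate sets of samples, those numbered 3 and 4 and those numbered 5 and 6. They were chosen by that difference (mean toc132 minus mean WT of at least 1 on the log2 scale in each set), from array probes annotated with a single gene and with at least 4 values above 0 in each group. Of 634 such probes, 65 passed both thresholds. A total of 10 of these were left out by the rule, which gave 55 genes out of the 3439 probes of the table. Over probes of any annotation 8.83% passed both thresholds, and 10.5% of the 618 with a single gene that had a difference in both sets. The differences in numbers 3 to 6 are therefore a description with no test, and only the samples numbered 1 and 2, which the rule did not use, could test them.

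Total RNA of 6 WT and 6 toc132 samples, both of ecotype Columbia 0, had been measured on an expression array, numbered 1 to 6 in each group. The sources used here give no allele, organ, age or growth condition. Separate plants are not named by any label, so a p-value here speaks only of the spread among these 12 samples, possibly a technical one. The 2 samples of a set and group correlated at r = 0.901 to 0.975 across probes, and probes are not independent replicates. Whether such 2 samples are technical repeats is not stated by any label. WT 1 and 2 correlated more closely with toc132 1 and 2 (0.897 to 0.925) than with WT 3 to 6 (0.533 to 0.713). Deposited intensities summed to between 3536 and 3857 per sample, and the number of arrays limits the precision. Their distributions differed despite the similar sums. The median intensity was 0.609 and 0.616 in toc132 1 and 2, against 0.361 and 0.354 in WT 1 and 2. The largest value was 59.4 and 53 in these toc132 samples, against 100 in both WT samples. Differences in numbers 1 and 2 therefore depend on the scaling. Levels below are quantile normalised log2 intensities in arbitrary units, whose quartiles were -1.97, -1.04 and -0.10 over the probes of a sample. Each probe has its own brightness, so a percentile of brightness describes the signal of a probe and not the level of its gene against others. TOC132 and the other 12 genes of a list of the import machinery had 0 probes of their own, as had 6 seed and 3 root markers. Of 4 leaf markers 1 had a probe of its own and passed the thresholds, but it was among the probes left out.

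Most chloroplast proteins are encoded in the nucleus, made in the cytosol as preproteins and imported through the TOC and TIC complexes of the envelope. TOC132 is a receptor of the TOC complex, closely related to TOC120, and is best known for handling preproteins outside the photosynthetic apparatus, whereas TOC159 serves mainly photosynthetic preproteins. Loss of import is known to feed back on nuclear genes for plastid proteins through retrograde signals.

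The 55 genes were low in WT 3 to 6 and stood at similar levels in the other 8 samples. Their median level was -2.25 in WT 3 and 4 and -2.56 in WT 5 and 6, against -0.46 in WT 1 and 2. The toc132 samples had medians of -0.39 (numbers 1 and 2), -0.56 (3 and 4) and -0.74 (5 and 6). Over all probes with enough values these 6 medians lay between -1.06 and -1.01. The median difference of the 55 genes was 1.78 (quartiles 1.31 and 2.36) in numbers 3 and 4 and 1.91 (1.51 and 2.57) in numbers 5 and 6, and in 12 genes both differences reached 2. The difference was larger in numbers 5 and 6 for 30 genes and in numbers 3 and 4 for 25.

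All 4 toc132 samples of numbers 3 to 6 lay above all 4 WT samples in 51 of the 55 genes (17.2% of all probes), and all 6 toc132 samples lay above WT 3 to 6 in 50 (15.6% of all probes). For AT3G25680 (WT 6) and AT5G04600 (WT 4) 1 of these WT values was missing. The groups overlapped in numbers 3 to 6 for AT5G11550, AT5G66530, AT4G13550 and AT1G32220. These counts follow in part from the rule, which used the same values.

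**Figure D1:**
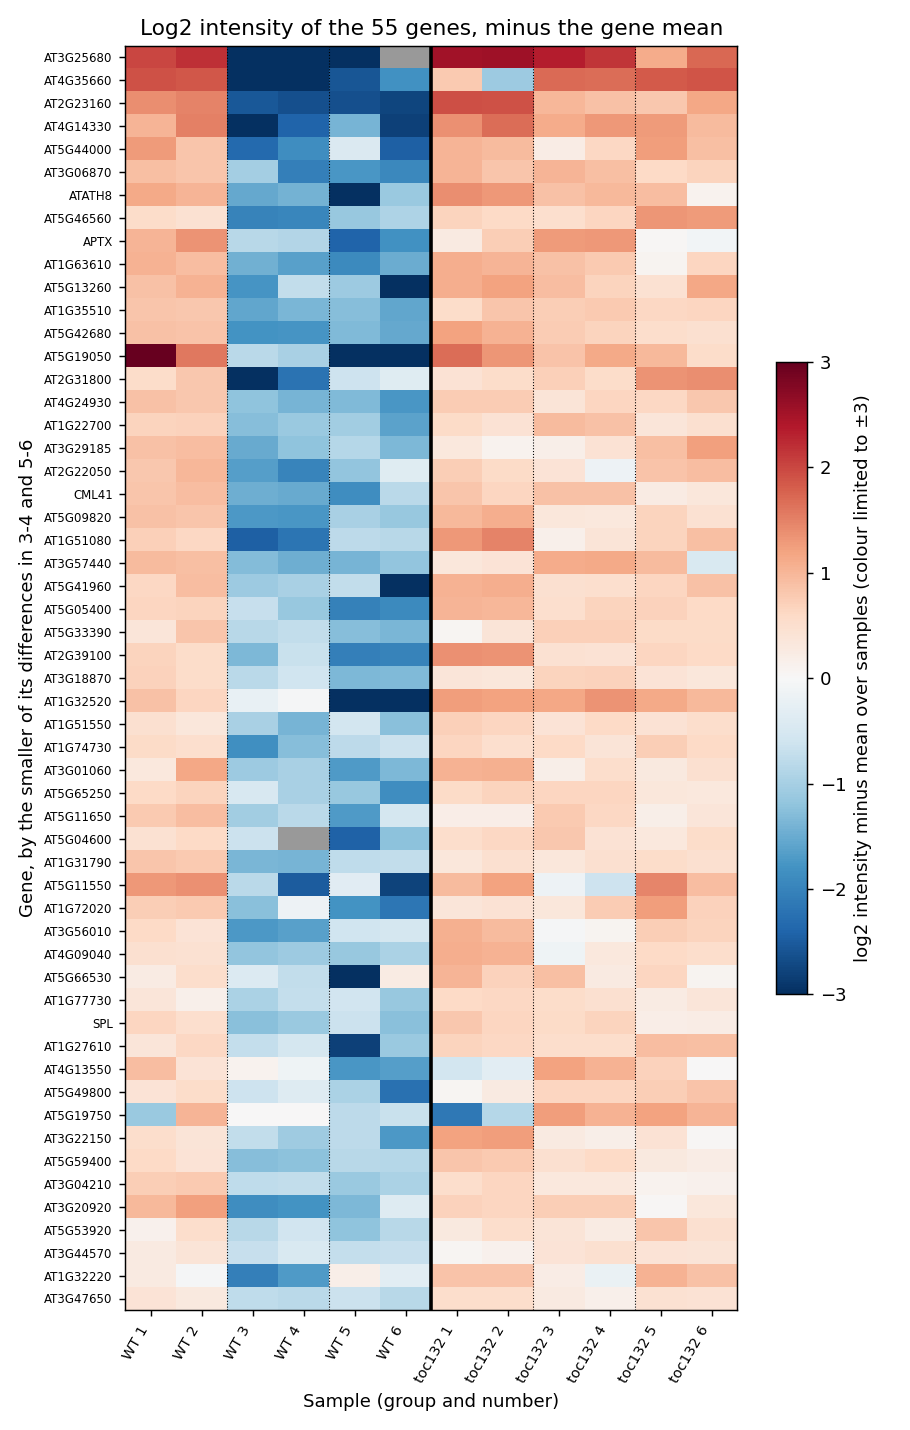
Log2 intensity of each of the 55 genes (rows) in each of the 12 samples (columns), minus the gene's mean over its samples. Colours are limited to 3 on either side and grey marks a deposited value of 0. WT 3 to 6 are the low samples in nearly all rows, while WT 1 and 2 have the colours of the toc132 samples, with AT5G19750 as an exception.

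WT samples 1 and 2 lay near the levels of toc132 in nearly all of these genes. Both lay above all of WT 3 to 6 in 52 of the 55 genes (26% of all probes), and their mean was above those of WT 3 and 4 and of WT 5 and 6 in 54 (32.1% of all probes). It was nearer to the toc132 mean of numbers 3 to 6 than to the WT mean of those numbers in 54 genes (76.1% of all probes). The exception in both counts of 54 was AT5G19750. The median of WT 1 and 2 minus the mean of toc132 3 to 6 was 0.14, against 2.10 for WT 1 and 2 minus the mean of WT 3 to 6. These values share samples with the rule, so they are given with no test.

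In numbers 1 and 2 the mutant and the wild type differed little in these genes, and in no common direction. The median difference, toc132 minus WT, was 0.05 (quartiles -0.26 and 0.30), against 0.07 over all probes, and it was 0.08 for number 1 and 0.01 for number 2. The mean was higher in toc132 in 30 genes and lower in 25, where 55.8% of the 3094 probes tested were higher. The split depended on the scaling, with 18 genes higher under cyclic loess and 46 in the values as deposited, where the median of all probes lay at 0.70 instead of 0.07. Differences and calls given below for the values as deposited include that shift of all probes. None of the 55 genes reached a difference of 1 upward (5.17% of all probes), and 4 reached it downward (3.36%). Both toc132 samples lay above both WT samples in 22 genes (38.6% of all probes) and below them in 17 (29.9%). AT1G32520 alone had all 6 toc132 samples above all 6 WT samples (1.16% of all probes).

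With limma, over all 3094 probes and with Benjamini-Hochberg adjustment, 8 of the 55 genes passed an adjusted p of 0.05 in numbers 1 and 2, 5 higher and 3 lower in toc132. The share of all probes that passed was 18.3%, with 9.08% higher and 9.18% lower, so the 8 genes are near the background. The test measures the spread between the 2 close samples of a set. At an unadjusted limma p under 0.05 there were 16 of the 55 genes, and 33.2% of all probes. With each of the samples numbered 1 and 2 left out, the median difference of the 55 genes was 0.02 to 0.10, against 0.05 to 0.07 over all probes. With the replicate number as a block 7 genes passed, and 538 of the 3094 probes. With cyclic loess it was 4 genes and 383 probes.

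**Figure D2:**
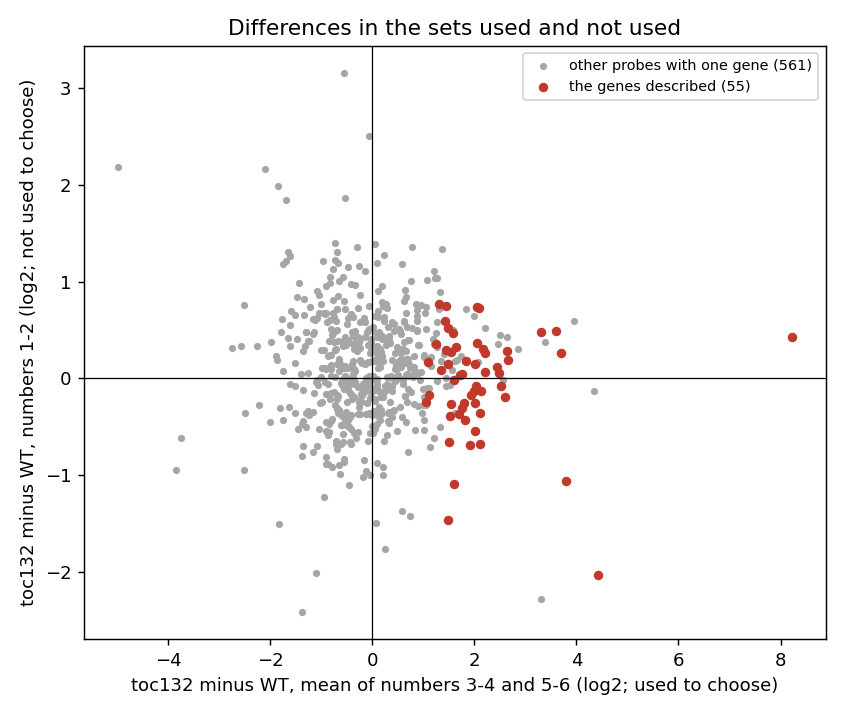
Each point is a probe with a single gene, placed by its log2 difference toc132 minus WT averaged over numbers 3-4 and 5-6 (horizontal axis) and in numbers 1-2 (vertical axis). The 55 genes (red) lie to the right by the rule, and spread on both sides of 0 on the vertical axis, from -2.04 to 0.77, around a median of 0.05. The 561 grey points are all other probes with a single gene and a value in every set, the left-out ones included.

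Among the 55 genes, 7 are known to act in photosynthesis, most of them in building or arranging its complexes. This grouping, like those that follow, was made by known function after the members were known, and carries no test. All 7 had toc132 3 to 6 above WT 3 to 6, as had 51 of the 55 genes and 17.2% of all probes, which follows in part from the rule. In numbers 1 and 2 the 7 genes spread from -0.69 to 0.29, with 4 higher and 3 lower in toc132.

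AT1G22700 encodes a thylakoid protein needed to assemble photosystem I. Its log2 level was -0.34 and -0.31 in WT 1 and 2, -2.29 and -2.12 in WT 3 and 4, and -2.06 and -2.60 in WT 5 and 6. In toc132 it was -0.43, -0.56, -0.05, -0.14, -0.63 and -0.52 for numbers 1 to 6. The 4 WT samples 3 to 6 were thus the low ones and WT 1 and 2 lay among the toc132 samples, with differences of 2.11 in numbers 3 and 4, 1.75 in 5 and 6 and -0.17 ± 0.17 (SE, limma adjusted p = 0.552) in 1 and 2.

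AT3G29185 encodes an assembly factor of the chloroplast ATP synthase. It stood at -1.14 and -1.09 in WT 1 and 2, at -3.53 and -3.23 in WT 3 and 4 and at -2.87 and -3.37 in WT 5 and 6. The toc132 levels were -1.70, -1.91, -1.83, -1.58, -1.10 and -0.78. Here toc132 1 and 2 lay below WT 1 and 2, at a difference of -0.69 ± 0.21 (SE, limma adjusted p = 0.0552), while toc132 was higher by 1.67 in numbers 3 and 4 and by 2.18 in 5 and 6.

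AT3G47650 encodes a zinc finger chaperone of the plastid that assists the assembly of Rubisco, and its probe was bright, above 91.2% of those tested. It stood at 1.298 and 1.19 in WT 1 and 2, at 0.13, 0.08, 0.24 and 0.06 in WT 3 to 6, and at 1.41, 1.41, 1.17, 1.05, 1.35 and 1.32 in toc132. The WT samples 3 to 6 lay close together, below the rest. It was also the gene nearest to the threshold, with differences of 1.005 and 1.19, and under 2 of the 3 other scalings it no longer passed the rule. Its difference in numbers 1 and 2 was 0.17 ± 0.10 (SE, limma adjusted p = 0.312) and turned to -0.48 with median centring (limma adjusted p = 0.0144).

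AT1G74730 encodes a thylakoid protein that takes part in grana stacking and the arrangement of the light-harvesting antenna. Its level was -0.09 and -0.17 in WT 1 and 2, -2.50 and -1.93 in WT 3 and 4, -1.45 and -1.302 in WT 5 and 6, and between -0.28 and 0.08 in all toc132 samples. Mutant and wild type thus had nearly equal levels in numbers 1 and 2, at a difference of 0.04. A second probe, which names AT1G74730 together with another gene, went the other way in the chosen sets, at -2.69 in numbers 3 and 4 and -1.89 in 5 and 6, and which gene it reads was not tested.

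AT5G09820 encodes a fibrillin, a plastid lipid-associated protein needed for making plastoquinone. It was higher in toc132 by 2.06 in numbers 3 and 4, by 1.63 in 5 and 6 and by 0.18 in 1 and 2. A probe shared by AT5G09820 with other genes was lower in toc132, at -0.48, -0.81 and -0.04 in the same order. AT4G24930, a protein of the thylakoid lumen, had differences of 1.83, 2.24 and -0.08 in the same order. AT5G59400, related to the proteins of cyclic electron flow around photosystem I, had 1.78, 1.10 and 0.29. None of these 3 genes passed in numbers 1 and 2, and in each WT 1 and 2 lay above all of WT 3 to 6. That order held in 52 of the chosen genes and in 26% of all probes, so it does not set these 3 apart.

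**Figure D3:**
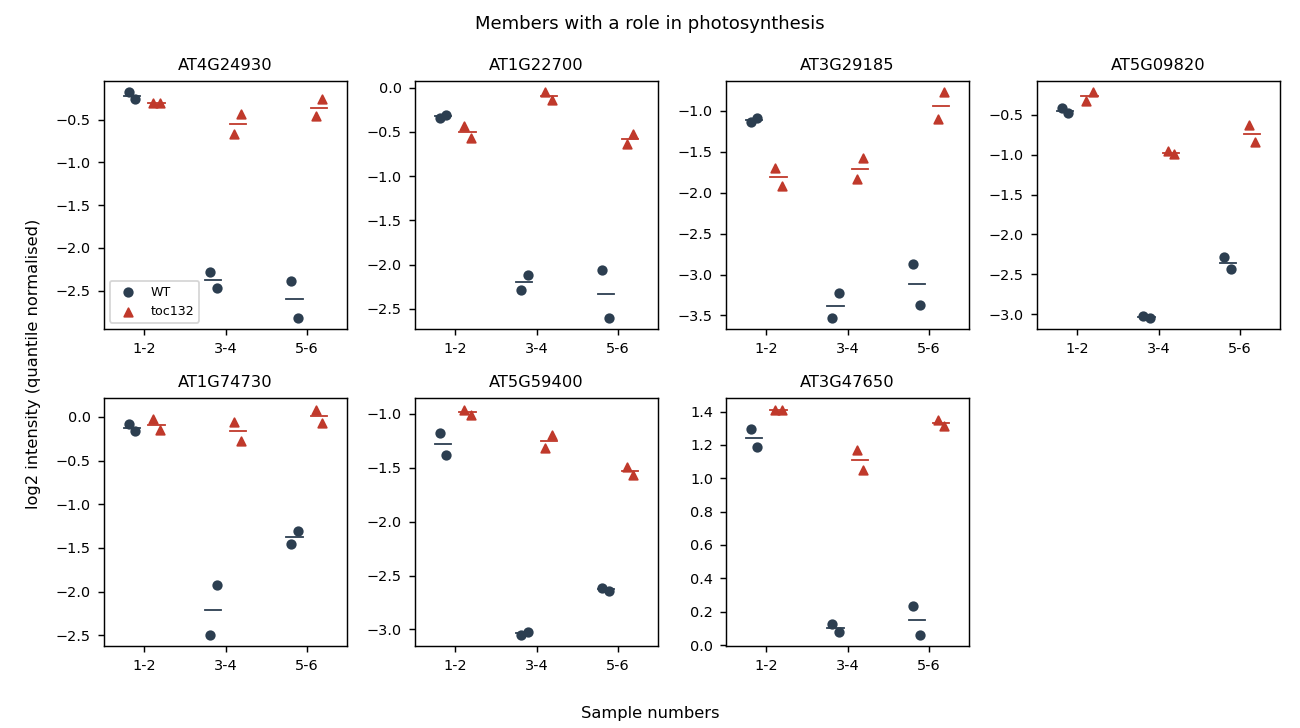
Log2 intensity of the 7 genes with a role in photosynthesis, by set of sample numbers, with WT as circles, toc132 as triangles and a bar at the mean of the 2 samples. In all 7 genes the 4 WT samples numbered 3 to 6 lie below the other 8 samples, which follows in part from the rule. Among all the chosen genes, both WT 1 and 2 lie above WT 3 to 6 in 52 (26% of all probes). All toc132 samples lie above WT 3 to 6 in 50 of the chosen genes (15.6% of all probes). Neither order sets the 7 genes apart.

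Proteins that bind or process RNA made up 5 of the genes. AT1G31790 and AT3G22150 encode pentatricopeptide repeat proteins, a family that edits, splices or stabilises organelle transcripts, and AT3G22150 is known for editing a chloroplast transcript of the ATP synthase. AT3G18870 belongs to the mTERF family, which acts on organelle gene expression, and AT4G09040 and AT5G04600 carry RNA recognition motifs. All 5 had toc132 3 to 6 above WT 3 to 6, as had nearly all of the chosen genes (51) and 17.2% of all probes. This order follows in part from the rule. The differences were 1.11 to 1.79 in numbers 3 and 4 and 1.26 to 2.26 in 5 and 6. For AT5G04600 the deposited value of WT 4 was 0 and treated as missing. Its difference of 1.27 in numbers 3 and 4 thus rests on WT 3 alone. Differences of at least 1 were required by the rule, so neither result sets this group apart.

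These 5 genes went apart in numbers 1 and 2. AT1G31790 was at 0.32 and 0.28 in WT 1 and 2 and at -0.16 and -0.02 in toc132 1 and 2, a difference of -0.39 ± 0.10 (SE, limma adjusted p = 0.0322). Its other levels were -1.88, -1.90, -1.27 and -1.24 in WT 3 to 6, and -0.17, -0.03, 0.04 and -0.03 in toc132 3 to 6. WT 1 and 2 were thus the highest of its 12 samples. The difference was 0.12 in the values as deposited, and the adjusted p was 0.0684 with the replicate block.

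AT4G09040 was higher in toc132 in all 3 sets, and in numbers 1 and 2 it stood at -0.97 and -0.98 in WT against -0.36 and -0.41 in toc132. That difference of 0.59 ± 0.15 (SE) passed in limma (adjusted p = 0.0336) and not with median centring (0.0516) or cyclic loess (0.210). AT3G22150 had the largest upward difference of the 55 genes in numbers 1 and 2, at -0.67 and -0.80 in WT and 0.02 and 0.05 in toc132. Its difference of 0.77 ± 0.28 (SE) missed the threshold (limma adjusted p = 0.101) and passed with the replicate block (0.0435), in a fit of the 4 samples alone (0.0328) and in the values as deposited (0.00678). AT3G18870 had -0.26 and AT5G04600 0.05, and neither passed.

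Signalling and defence were represented by 5 genes. CML41 (AT3G50770) is a calmodulin-like calcium sensor known for closing plasmodesmata in immunity. AT5G05400 and AT3G04210 encode immune receptors of the nucleotide-binding class, AT2G31800 a kinase of the Raf-like family, and ATATH8 (AT2G39190) a kinase of the ABC1 family. CML41 stood at 0.44 and 0.56 in WT 1 and 2, at -1.83, -1.88, -2.24 and -1.19 in WT 3 to 6, and at 0.47, 0.28, 0.51, 0.51, -0.12 and -0.03 in toc132. AT3G04210 stood at 1.80 and 1.86 in WT 1 and 2, at 0.31, 0.32, -0.04 and 0.12 in WT 3 to 6, and at 1.61, 1.72, 1.40, 1.40, 1.19 and 1.20 in toc132. For CML41 WT 1 thus lay among the toc132 levels and WT 2 just above them, and for AT3G04210 both lay above them. AT3G04210 passed the rule under only 1 of the 3 other scalings.

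ATATH8 was among the 10 genes with the largest smaller difference, at 2.40 in numbers 3 and 4 and 2.90 in 5 and 6. Its WT levels of numbers 3 to 6 were low and uneven, at -3.28, -3.16, -5.41 and -2.86, and its levels in the other samples lay between -1.65 and -0.35. AT2G31800 had 3.34 and 1.86, from WT levels of -5.77, -4.81, -3.20 and -2.96 at the dim end of the distribution. AT5G05400 had 1.50 and 2.61. The 5 genes lay in numbers 1 and 2 between -0.19 and 0.36 and none passed, but AT3G04210 did with median centring, at -0.98 (limma adjusted p = 0.000384).

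Enzymes and lipid-binding proteins made up 7 genes. AT5G44000, of the glutathione S-transferase family, stood at -1.08 and -1.52 in WT 1 and 2, at -4.68, -4.20, -2.78 and -4.81 in WT 3 to 6 and between -2.13 and -1.10 in toc132. Its differences of 2.51 and 2.52 in the chosen sets thus stood beside -0.08 ± 0.56 (SE) in numbers 1 and 2. The latter turned to 0.70 in the values as deposited, where the median of all probes was also 0.70. AT1G35510, of the O-fucosyltransferase family, was a bright and even probe, at 1.32 and 1.297 in WT 1 and 2, at -1.06, -0.89, -0.80 and -1.07 in WT 3 to 6 and at 1.04 to 1.32 in toc132. A probe shared by AT1G35510 with other genes was lower in toc132 in all 3 sets, at -0.63, -0.53 and -0.61.

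AT4G13550 encodes a lipase of the chloroplast known from heat stress, and its probe was dim, above 4.80% of the probes tested. It stood at -2.30 and -2.82 in WT 1 and 2, at -3.11, -3.36, -4.96 and -4.87 in WT 3 to 6, and at -3.77, -3.54, -2.004, -2.18, -2.53 and -3.20 in toc132. For numbers 1 and 2 toc132 was lower, at a difference of -1.10 ± 0.25 (SE, limma adjusted p = 0.0213), opposite to the other sets, where it was higher by 1.14 and 2.05. That call was lost with the replicate block (adjusted p = 0.052), and the difference was 0.01 in the values as deposited.

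The remaining enzymes were AT5G11650, of the monoacylglycerol lipase family, AT5G66530, of the galactose mutarotase family, AT5G53920, a methyltransferase related to that of ribosomal protein L11, and AT5G49800, with a lipid-binding domain of the START type. Their differences lay between 1.03 and 1.64 in numbers 3 and 4, between 1.37 and 2.39 in 5 and 6, and between -0.66 and 0.47 in 1 and 2, where none passed. For AT5G66530 the groups overlapped, since WT 6 stood at -2.54 and toc132 6 at -2.71.

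A further 7 genes have other known roles. AT4G14330 encodes a kinesin-related protein of the phragmoplast, the structure that builds the new wall in dividing cells. Its level was -0.93 and -0.45 in WT 1 and 2, -5.56, -4.36, -3.36 and -4.75 in WT 3 to 6, and -0.59, -0.27, -0.85, -0.66, -0.67 and -1.01 in toc132. The 4 low WT samples were thus more than 2 below all others. APTX (AT5G01310), related to the DNA repair enzyme aprataxin known from human cells, was at 0.46 and 0.78 in WT 1 and 2, at -1.39, -1.44, -2.97 and -2.39 in WT 3 to 6 and at -0.30, 0.18, 0.70, 0.74, -0.53 and -0.65 in toc132. The difference of APTX in numbers 1 and 2 was -0.68 ± 0.23 (SE, limma adjusted p = 0.0768). It passed with median centring (-0.91, adjusted p = 0.0214) and with the offset before log2 (-0.65, 0.0362), and was -0.20 in the values as deposited.

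AT2G23160, of the F-box family that selects proteins for ubiquitination, was one of the 8 genes that passed in numbers 1 and 2. It stood at -0.56 and -0.49 in WT 1 and 2, at -4.51, -4.60, -4.60 and -4.73 in WT 3 to 6 and at -0.03, -0.05, -0.97, -1.09, -1.15 and -0.81 in toc132. The difference in numbers 1 and 2 was 0.48 ± 0.13 (SE, limma adjusted p = 0.0396), small beside 3.52 and 3.68 in the chosen sets. With cyclic loess it was 0.02, and with the replicate block its adjusted p was 0.0788.

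AT5G19750, of a family of peroxisomal and organelle membrane proteins, was the gene in which WT 1 and 2 did not share the toc132 level. It stood at -2.45 and -0.33 in WT 1 and 2 and at -3.50 and -2.21 in toc132 1 and 2, so the samples of each close pair lay apart. WT 3 to 6 stood at -1.33, -1.32, -2.13 and -2.01 and toc132 3 to 6 at -0.09, -0.30, -0.14 and -0.33. Its difference of -1.46 ± 0.64 (SE) in numbers 1 and 2 did not pass (limma adjusted p = 0.152) and did with the replicate block (0.0233). Without WT 1 it was -2.52 (limma adjusted p = 0.0173), and without WT 2 it was -0.41 (0.624).

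SPL (AT4G27330), a regulator of spore formation in anthers and ovules, had differences of 1.81, 1.16 and 0.15 in numbers 3 and 4, 5 and 6, and 1 and 2. AT3G20920, a part of the protein translocation apparatus of the endoplasmic reticulum, had 2.58, 1.06 and -0.43. AT1G51550, an F-box protein with kelch repeats, had 1.69, 1.39 and 0.27. Neither SPL nor the other 2 passed in numbers 1 and 2.

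The other 24 genes are given by their identifiers with no role. AT3G25680 had the largest differences of all, 6.04 and 10.40, and they rest on values near 0. Its deposited intensities were 0.0101, 0.0189, 0.000666 and 0 in WT 3 to 6, against 0.569 and 0.649 in WT 1 and 2 and 0.353 to 1.19 in toc132. The sample at 0 was treated as missing, so the size of the difference in numbers 5 and 6 depends on 1 very small WT value. In numbers 1 and 2 the log2 difference was 0.43 ± 0.37 (SE, limma adjusted p = 0.483), and 0.95 in the values as deposited (0.0381).

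AT4G35660 was bright, above 96.6% of the probes tested, and its 2 levels were far apart. Its deposited intensities were 16.2 and 15.7 in WT 1 and 2 and 15.8 to 16.4 in toc132 3 to 6, against 0.634, 0.518, 0.620 and 1.14 in WT 3 to 6. The samples toc132 1 and 2 stood between them, at 5.71 and 1.96. The log2 differences were 4.80 in numbers 3 and 4, 4.05 in 5 and 6 and -2.04 ± 0.52 (SE, limma adjusted p = 0.0329) in 1 and 2, the lowest of the 55 genes. Without toc132 sample 2 the last value was -1.11 (limma adjusted p = 0.0749).

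AT5G46560 was the other bright gene among those with large differences, at 1.57 and 1.48 in WT 1 and 2, -0.98, -0.94, -0.12 and 0.09 in WT 3 to 6, and 1.69, 1.60, 1.51, 1.65, 2.34 and 2.30 in toc132. The difference in numbers 1 and 2 was 0.12 ± 0.11 (SE) and turned to -0.64 with median centring (limma adjusted p = 0.00506). AT3G06870 stood at 0.96 and 0.90 in WT 1 and 2, at -0.97 to -1.98 in WT 3 to 6 and at 0.66 to 1.07 in toc132. AT1G63610 was at -0.35 and -0.45, at -2.82 to -3.30 and at -0.30 to -1.296 in the same order. For AT5G46560, AT3G06870 and AT1G63610 alike, the means of WT 1 and 2 and of toc132 1 and 2 differed by at most 0.12. AT1G63610 passed in the values as deposited, at 0.64 (limma adjusted p = 0.0315), where the median of all probes was itself 0.70.

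Among the genes without a role, AT1G51080, AT2G39100 and AT3G56010 passed in numbers 1 and 2, all higher in toc132. AT1G51080 stood at 0.43 and 0.35 in WT 1 and 2 and at 1.02 and 1.21 in toc132, a difference of 0.73 ± 0.14 (SE, limma adjusted p = 0.0133). AT2G39100 stood at 1.13 and 1.01 in WT and 1.82 and 1.81 in toc132 (0.74 ± 0.19, SE, limma adjusted p = 0.0346, and 0.059 with the replicate block). For AT3G56010 the levels were -0.05 and -0.24 in WT and 0.43 and 0.31 in toc132 (0.52 ± 0.11, SE, limma adjusted p = 0.0159). With median centring these 3 differences fell to 0.23, 0.04 and 0.23 and none passed. The gene AT1G32220 had a like difference, 0.74 ± 0.22 (SE), with a limma adjusted p of 0.0557. It passed in the values as deposited (1.45, adjusted p = 0.00195), without the dimmest 25% of probes (0.0388), in a fit of the 4 samples alone (0.0468) and with the offset (0.0496).

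**Figure D4:**
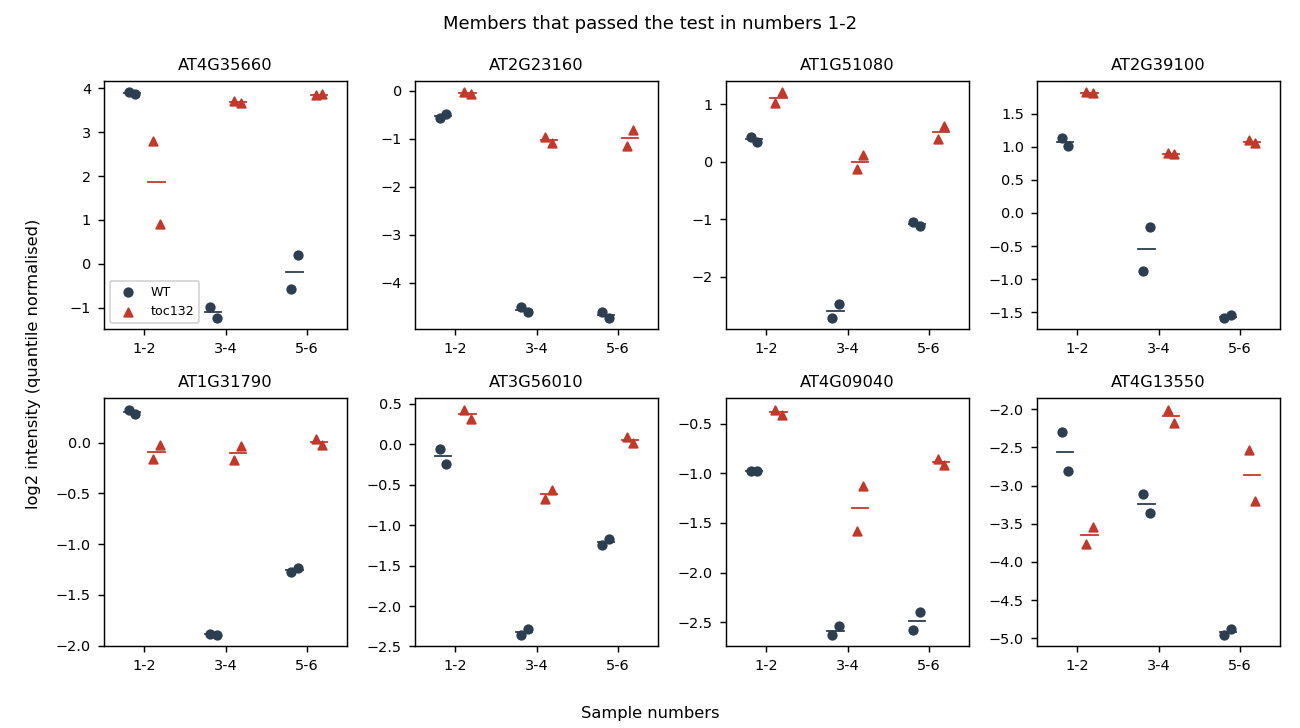
Log2 intensity of the 8 genes that passed in numbers 1-2, by set of sample numbers, with WT as circles, toc132 as triangles and a bar at the mean of the 2 samples. In numbers 1-2 toc132 is higher in 5 genes and lower in AT4G35660, AT1G31790 and AT4G13550, and in numbers 3-4 and 5-6 it is higher in all 8 by the rule.

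For AT5G19050 the samples of a pair lay apart, at 1.27 and -0.70 in WT 1 and 2. It stood at -3.08 and -3.26 in WT 3 and 4, at -7.27 and -7.15 in WT 5 and 6, and at -0.60 to -1.72 in toc132. The difference of -1.06 ± 0.53 (SE) in numbers 1 and 2 did not pass (limma adjusted p = 0.204). It rested on which WT sample was kept, at -0.076 (limma adjusted p = 0.883) without WT 1 and -2.03 (0.00586) without WT 2. AT1G32520, the gene with no overlap between the groups, stood at -0.03 and -0.25 in WT 1 and 2, at -1.13 and -0.93 in WT 3 and 4, at -4.89 and -5.23 in WT 5 and 6 and at 0.08 to 0.44 in toc132, and its difference of 0.48 ± 0.15 (SE) in numbers 1 and 2 had a limma adjusted p of 0.0688, and of 0.0475 with the replicate block. It was singled out after its values were seen.

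The last 13 genes without a role lay between 1.02 and 2.51 in numbers 3 and 4, between 1.10 and 3.27 in 5 and 6 and between -0.55 and 0.35 in 1 and 2, where none passed. They were AT5G13260, AT5G42680, AT2G22050, AT3G57440, AT5G41960, AT5G33390, AT3G01060, AT5G65250, AT5G11550, AT1G72020, AT1G77730, AT1G27610 and AT3G44570, the last of which passed with median centring, at -0.52 (limma adjusted p = 0.0121).

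At the threshold of the rule the genes just inside were AT3G47650 (smaller difference 1.005), AT1G32220 (1.02) and AT3G44570 (1.02). Those just outside were AT5G51670 (0.99, from numbers 5 and 6), AT1G19490 (0.99, from 3 and 4) and AT5G22620 (0.98, from 3 and 4), so no gap separates the 55 genes from the rest. A total of 37 of the 55 genes passed the rule under all 3 other scalings, and AT3G44570, AT3G47650 and AT3G04210 under only 1 of them.

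The probes of the 55 genes covered the range of brightness. Their mean level over all samples was above the median of the tested probes in 25 genes, among the lowest 25% in 15 and among the highest 25% in 11. In numbers 1 and 2 alone their median level was -0.36, against -1.05 over all probes. The gap between the 2 samples of a pair had a median of 0.20 in WT 3 and 4 and 0.37 in WT 5 and 6, where the genes were low, against 0.14 and 0.22 over all probes. In the other 4 pairs it was 0.10 to 0.15 for the 55 genes and 0.13 to 0.20 over all probes.

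A second probe naming the same gene existed for 7 of the 55 genes, in each case together with other genes. The genes were AT3G25680, AT1G63610, AT1G35510, AT5G42680, AT2G22050, AT5G09820 and AT1G74730. Their 7 second probes differed by -2.69 to 0.52 in numbers 3 and 4 and by -1.89 to 0.43 in 5 and 6, so none of them passed the thresholds of the rule. No source used here states which of its genes such a probe reads. The nearest neighbours in the RefSeq gene order of TAIR10.1 were AT2G39100 and ATATH8, with 7 protein-coding genes between them, and AT5G11550 and AT5G11650, with 10. Chromosomes 1 to 5 held 12, 5, 13, 6 and 19 of the 55 genes, against 153, 120, 123, 114 and 122 of the tested probes with a single gene.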

How the data were processed

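The authors deposited a linear intensity per probe and sample, between 0 and 100. How they scaled or corrected it for background, and on which array, is not stated in the labels, so exact zeros cannot be read and folds of dim probes are uncertain. Sample titles gave groups and numbers, and 0 columns had no sample. Values of 0 were set to missing, and log2 values were quantile normalised over the 12 samples.

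Probes were named through GEO's platform annotation and the RefSeq gene table of TAIR10.1, to which 55 of the 55 genes matched. Planned classes by words in gene descriptions were not used, since these tables hold symbols and synonyms only (0 of the 55 genes matched a word). Roles are background knowledge. Members and lists were chosen with earlier results of these data known.

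The difference in numbers 1 and 2 was fitted with limma 3.58.1 under R 4.3.3 (moderated, 2-sided, Benjamini-Hochberg adjustment, threshold 0.05). The fit held all 12 samples, with a mean for each group in each set of numbers, over 3094 probes with all 4 values of numbers 1 and 2. The fit was tested on simulated data. Figures were drawn with matplotlib 3.10.9.

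Same-numbered WT and toc132 samples deviated together from their group means, with correlations of 0.326, 0.301, 0.202, 0.153, 0.439 and 0.393 over 2907 complete probes, all above a limit of 0.1. With the other number of the same set they were 0.185, 0.201, 0.147, 0.160, 0.299 and 0.334, and for number 4 the latter was the larger. The largest correlation with a number of another set was 0.116 for number 3 and 0.139 for number 4, also above that limit. For numbers 1, 2, 5 and 6 it was 0.027, 0.013, -0.121 and -0.114. Within a set, the gap between its 2 numbers correlated between the groups at 0.446, 0.083 and 0.246, the second below that limit. The main fit took a mean per group and set and did not pair the numbers. Pairing by number entered only as the replicate block.

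Named with values were the 10 genes with the largest smaller difference, the 3 just inside and outside the threshold, those called in numbers 1 and 2 with the 4 highest and 4 lowest there, the 3 brightest, and, in place of the word classes, members of groups by role made after the values were seen.

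Other settings tried were 3 scalings, leaving out dim or incomplete probes, an offset of 0.1, numbers 1 and 2 alone, the replicate block, another variance model and each sample left out.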

Additional observations from a re-analysis of the deposited data

Results flagged for a closer look

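In groups of 5 or 6 samples, 2 of the 110 groups examined held a sample far from the others. Chance flags about 1 group in 20 where all samples of a group come from 1 population. The WT groups join WT 1 and 2 with the low WT 3 to 6, so that rate does not hold for them. For AT4G35660 the sample toc132 2 stood at 0.92 (log2), with the nearest toc132 sample at 2.79 and the highest at 3.88. For AT5G66530 the sample WT 5 stood at -6.26, with the nearest WT sample at -3.53 and the highest at -2.27, and its probe was dim.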

How the results depend on the processing

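The number of genes chosen by the rule was 55 and lay between 39 and 68 over the other scalings, filters and offset, and between 50 and 58 with each of the samples numbered 3 to 6 left out. In numbers 1 and 2, 565 probes (281 higher, 284 lower) and 8 of the 55 genes passed. In the values as deposited it was 1819 probes (1683 higher, 136 lower), 23 genes, 46 genes higher in toc132 and a median of 0.64, beside 0.70 over all probes. With median centring 730 probes (205 higher, 525 lower) and 10 of the 55 genes passed, and the median of the 55 genes was -0.076. With cyclic loess it was 383 probes, 4 genes, 18 genes higher and a median of -0.18. With the offset 13 genes passed, beside 696 of the 3439 probes tested under that setting. With the replicate block 538 probes and 7 genes passed. AT2G23160, AT2G39100, AT1G31790 and AT4G13550 lost their call and AT5G19750, AT3G22150 and AT1G32520 gained one. The block changed no other call among the 55 genes.

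Leaving out each of the samples numbered 1 and 2 gave 199 to 375 probes and 0 to 3 genes (3 without WT 1, 2 without WT 2, 2 without toc132 1 and 0 without toc132 2), with 28 to 30 genes higher and a median of 0.02 to 0.10. The single sample left in a group was assumed to vary like the others. These fits have 1 sample fewer in the comparison; for the scalings the cause was not tested.

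Of 292 differences of the 23 genes named by the rule in numbers 1 and 2, 15 turned direction. Of those that kept their direction, 48 lost and 16 gained a call. Among the 15, AT1G31790 and AT4G13550 also lost a call in the values as deposited, and AT5G46560 and AT3G47650 gained one with median centring. With cyclic loess AT3G25680 turned to -0.11, AT4G14330 to -0.13, AT3G06870 to -0.18, ATATH8 to -0.073 and AT1G63610 to -0.23. With median centring AT3G06870 turned to -0.46, AT5G46560 to -0.64, AT1G63610 to -0.076 and AT3G47650 to -0.48. In the values as deposited AT5G44000 turned to 0.70, AT1G31790 to 0.12, AT4G13550 to 0.0088 and AT3G44570 to 0.20. AT5G44000 turned to 0.14 without WT 1, with -0.29 to 0.14 over the samples left out, and AT3G06870 to -0.040 without toc132 1, with -0.040 to 0.15. No label or file gives a background, so limits set by signal over background are unknown.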
